A study of Homo sapiens with 9 samples.

Results

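Hyaluronan is a long, unbranched polysaccharide of the pericellular matrix, and the 9 genes described here make it, break it down or bind it: the synthase genes HAS1, HAS2 and HAS3, the hyaluronidase genes HYAL1, HYAL2 and HYAL3, CEMIP and its relative CEMIP2 (also known as TMEM2), and the receptor gene CD44. Of the 9, 7 were among the 19775 genes with a probe set of their own on the array, and they were followed through the 22 of 54613 probe sets annotated to only 1 of them. CD44 had 13 of them, HAS2, HAS3 and CEMIP had 2 each, and HYAL2, HYAL3 and CEMIP2 had 1 each. HAS1 and HYAL1 had none in the platform annotation used here and are not analysed. No filter on low values was applied, and 17 of the 22 probe sets had a mean intensity of at least 16.

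RNA came from HT1080, an established human fibrosarcoma line, grown in serum on a polymerised gel of fibrillar bovine dermal collagen, where the cells had attached for 24 h before treatment. Untreated cells, whose titles name a vehicle, were compared with cells given a protease inhibitor mix for 4 h or for 24 h, with 3 arrays per group. The series title and the treatment protocol name protease inhibitors, whereas the design text has the word kinase in its name for the cocktail; the agents below are those of the protocol. The mix held GM6001 (100 µM), which inhibits metalloproteinases, pepstatin A (50 µM), which inhibits aspartic proteases, E64 (250 µM), which inhibits cysteine proteases, and aprotinin and leupeptin (2 µM each), which inhibit serine proteases and, for leupeptin, cysteine proteases as well. The labels give neither the nature of the vehicle nor the harvest time of the untreated cells. All 3 groups were on collagen, so no value without the matrix or with a single inhibitor was analysed here. Marker genes matched the label: the 6 mesenchymal markers examined, among them VIM, were all above 16 in mean intensity, and the 6 epithelial markers, 4 of 5 endothelial markers and 3 of 4 measured blood markers lay below it, with PECAM1 and HBB the exceptions.

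Hyaluronan synthases sit in the plasma membrane, join UDP-glucuronic acid and UDP-N-acetylglucosamine into the chain and push it out of the cell as it grows. HYAL2 is anchored at the cell surface and cuts long chains, CEMIP is needed for hyaluronan breakdown by fibroblasts, and lysosomal enzymes finish the work on fragments that have been taken up. CD44 binds the chain at the cell surface, connects to actin through ezrin, radixin and moesin, and is itself cut by metalloproteinases and then by gamma-secretase. Metalloproteinases are among the enzymes that the mix inhibits, and cleavage of the CD44 protein is not something arrays measure.

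The promoter windows of 4 members are shown because results turn on these genes: CEMIP has the largest difference of the members between 4 h and 24 h on the log2(intensity + 16) scale, HAS3 has probe sets that went opposite ways, HYAL2 values split with the ACTB 5' to 3' ratio, a measure of RNA quality, and CD44 has most of the probe sets. Each window holds 250 bases before and 50 bases after the annotated start, from RefSeq on GRCh38.p14, 5′ to 3′ in the direction of the gene. Windows matched 8 of the 9 genes, all but HAS2. Those shown are chr15:80779120-80779419 on the plus strand for CEMIP, chr11:35138921-35139220 on the plus strand for CD44, chr16:69107290-69107589 on the plus strand for HAS3 and chr3:50322696-50322995 on the minus strand for HYAL2. Capitals mark matches to the motifs searched.
CEMIP: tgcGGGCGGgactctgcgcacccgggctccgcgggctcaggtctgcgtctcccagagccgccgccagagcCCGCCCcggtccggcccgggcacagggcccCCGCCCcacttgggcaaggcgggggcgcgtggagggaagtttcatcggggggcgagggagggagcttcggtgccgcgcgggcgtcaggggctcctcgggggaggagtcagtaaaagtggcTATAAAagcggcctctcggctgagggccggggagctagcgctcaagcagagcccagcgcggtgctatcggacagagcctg
CD44: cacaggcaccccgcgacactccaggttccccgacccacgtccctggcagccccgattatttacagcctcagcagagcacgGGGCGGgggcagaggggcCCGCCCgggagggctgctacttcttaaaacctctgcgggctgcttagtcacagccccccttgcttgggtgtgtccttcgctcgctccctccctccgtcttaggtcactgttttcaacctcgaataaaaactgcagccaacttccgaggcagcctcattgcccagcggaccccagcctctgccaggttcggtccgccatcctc
HAS3: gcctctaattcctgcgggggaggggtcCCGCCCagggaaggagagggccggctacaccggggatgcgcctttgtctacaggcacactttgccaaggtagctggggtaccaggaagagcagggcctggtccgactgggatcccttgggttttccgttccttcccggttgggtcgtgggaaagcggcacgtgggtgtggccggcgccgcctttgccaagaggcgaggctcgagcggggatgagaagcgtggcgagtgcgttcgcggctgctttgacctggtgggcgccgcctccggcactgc
HYAL2: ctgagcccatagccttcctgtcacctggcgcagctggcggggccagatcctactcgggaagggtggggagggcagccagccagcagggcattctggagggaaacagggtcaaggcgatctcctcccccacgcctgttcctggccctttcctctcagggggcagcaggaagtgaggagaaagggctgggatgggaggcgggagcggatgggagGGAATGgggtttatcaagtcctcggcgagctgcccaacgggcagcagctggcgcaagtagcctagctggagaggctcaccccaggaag

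Both strands were searched for 6 motifs: GGGCGG (SP1), TGANTCA (AP-1), GCGTGGGCG (EGR1), GGAATG (TEAD), TATAAA (the TATA box) and the NF-kB consensus. GGGCGG and GCGTGGGCG can overlap. CEMIP held 3 matches to GGGCGG and a TATAAA whose first base lay 30 bases before the start, CD44 held 2 matches to GGGCGG, HAS3 held 1, and HYAL2 held 1 match to GGAATG. Among 35116 promoter windows of the same length, GGGCGG was found in 45.0%, TATAAA in 11.5% and GGAATG in 14%. No window of these 4 held the letters of TGANTCA, of GCGTGGGCG or of the NF-kB consensus, which occurred in 7.71%, 0.795% and 11.3% of all windows. These are matches of letters only, and no binding was measured.

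Values are the authors' intensities on a linear scale, on arrays scaled to the same trimmed mean of 100. Differences are on the log2(intensity + 16) scale, which understates the difference of dim probe sets, and a probe set was called at a limma adjusted p under 0.05 over all 54613 probe sets. By this test none of the 22 hyaluronan probe sets was called in any comparison, where 0.0128% of all probe sets were called at 4 h against untreated, 0.0531% at 24 h against untreated and 0.0256% at 24 h against 4 h. At an unadjusted p under 0.05 the limma counts were 5, 8 and 4 of 22, beside 11.0%, 13.4% and 9.50% of all probe sets. Treated and untreated arrays did not overlap for 3 of 22 member probe sets at 4 h (16.1% of all probe sets), 1 of them higher and 2 lower with treatment (9.47% and 6.64% of all). At 24 h they did not overlap for 9 of 22 (21.0% of all), 3 higher and 6 lower (11.2% and 9.84%). The 24 h and 4 h arrays did not overlap for 6 of 22 (13.4% of all), 2 higher and 4 lower at 24 h (6.08% and 7.34%). The median difference over the members was -0.02 at 4 h and -0.07 at 24 h, against 0.03 and 0.02 over all probe sets. Probe sets of 1 gene share its RNA, so these counts are not over independent members.

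The arrays differed by more than the treatment label. The ratio of 5' to 3' signal for ACTB, a common measure of RNA quality, was 0.893 ± 0.034 (SD, n = 3) untreated, 0.723 ± 0.132 at 4 h and 0.697 ± 0.038 at 24 h (exact two-sided permutation p = 0.2 and 0.1 against untreated, 0.1 being the lowest p possible with 3 against 3 arrays). For GAPDH the ratio was not lower with treatment, at 1.05 untreated, 1.07 at 4 h and 1.08 at 24 h (exact permutation p = 0.3 and 0.1), the opposite direction. For ACTB, replicate 2 of the 4 h group stood apart, with a ratio of 0.871 against 0.682 and 0.615 in the other 4 h arrays. Its GAPDH ratio of 1.0486 lay inside the untreated range of 1.0478 to 1.0493. The other 4 h arrays had GAPDH ratios of 1.105 and 1.068, and the 24 h arrays 1.079, 1.061 and 1.097. The arrays with low ACTB ratios thus had the higher GAPDH ratios. Bacterial poly-A spike transcripts added during preparation were brighter after treatment, with mean log2(intensity + 16) values of 8.75 ± 0.07 untreated, 9.55 ± 0.20 at 4 h and 9.94 ± 0.03 at 24 h (exact permutation p = 0.1 and 0.1). The members' values are therefore given array by array where they bear on this. The labels do not say whether replicates came from separate cultures, though the design text calls them biological, so the p-values measure the spread between these arrays.

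The clearest difference among the synthases was in HAS2, whose enzyme makes hyaluronan of high molecular mass and is the main synthase in many mesenchymal cells. Probe set 206432_at read 30.8, 37.9 and 34.8 on the untreated arrays, 9.3, 14.3 and 14.2 at 4 h and 16.9, 11.2 and 9.0 at 24 h. All 6 treated arrays lay below all 3 untreated arrays, and the 4 h and 24 h arrays overlapped. On the log2(intensity + 16) scale the values were 1.77-fold lower at 4 h (log2 difference -0.82 ± 0.15 SE, limma adjusted p = 0.102) and 1.79-fold lower at 24 h (-0.84 ± 0.15 SE, limma adjusted p = 0.0706), so neither passed the threshold. The difference between 24 h and 4 h was -0.02, with a 95% interval from -0.34 to 0.31 (limma adjusted p = 0.987). In bulk RNA, fewer cells with a transcript and less of it per cell cannot be told apart.

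The other HAS2 probe set, 230372_at, was also lower in the treated arrays. It read 35.9, 18.3 and 27.3 untreated, 13.3, 11.3 and 14 at 4 h and 13.4, 6.2 and 1.8 at 24 h. Again no treated array reached the lowest untreated array. Its log2 differences were -0.56 ± 0.21 SE at 4 h (limma adjusted p = 0.348) and -0.91 ± 0.21 SE at 24 h (limma adjusted p = 0.103). All 6 treated arrays were below all 3 untreated ones for 2 of the 22 member probe sets, these of HAS2, and for 2.98% of all probe sets. Both probe sets were dim after treatment, where values near or under 16 have no detection call to set them apart from background.

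Whether 206432_at was called at 24 h depended on how the table was tested. The limma adjusted p was 0.0473 when each gene was represented by its brightest probe set, 0.0497 with the mean over a gene's probe sets, 0.0416 when the dimmest 40% of probe sets were left out, and 0.0241 with a pseudocount of 64. The value with the mean is for both HAS2 probe sets together, not for 206432_at alone. It was 0.143 with the replicate number as a block, 0.172 with a pseudocount of 1, and from 0.0592 to 0.243 over the 9 fits that each dropped 1 array. The difference was below 0 in all 20 alternatives, of which 4 made the call. In several of them it could only stay at -0.84. These changed the spread, the adjustment or arrays outside the comparison, and say nothing on direction. Replicate 2 of the 4 h group, whose ACTB ratio of 0.871 was in the untreated range, had a 206432_at value of 14.3, close to the other 4 h arrays. Its poly-A spike value of 9.39 lay above the untreated range of 8.67 to 8.79. The part of RNA quality or preparation in the HAS2 difference was not tested.

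**Figure D1:**
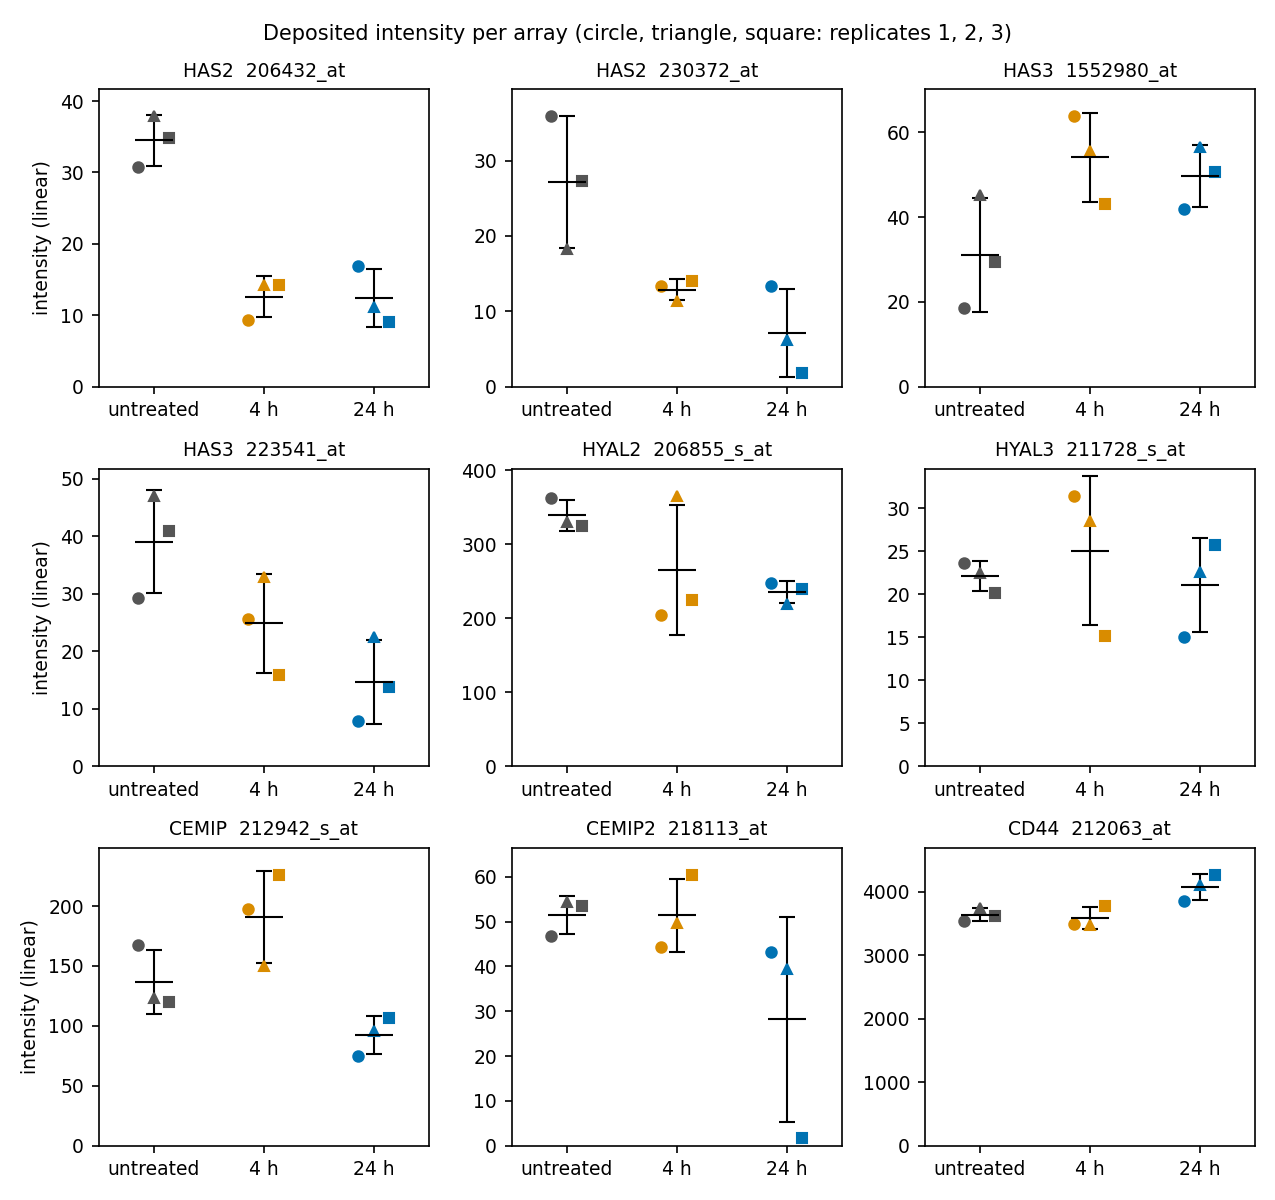
Deposited linear intensity per array for 9 member probe sets, with a group mean and SD bar (n = 3); each panel has its own axis from 0. For HAS2 206432_at the treated arrays lie between 9.0 and 16.9 and the untreated ones between 30.8 and 37.9, while CEMIP2 at 24 h has 1 array at 1.8.

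**Figure D2:**
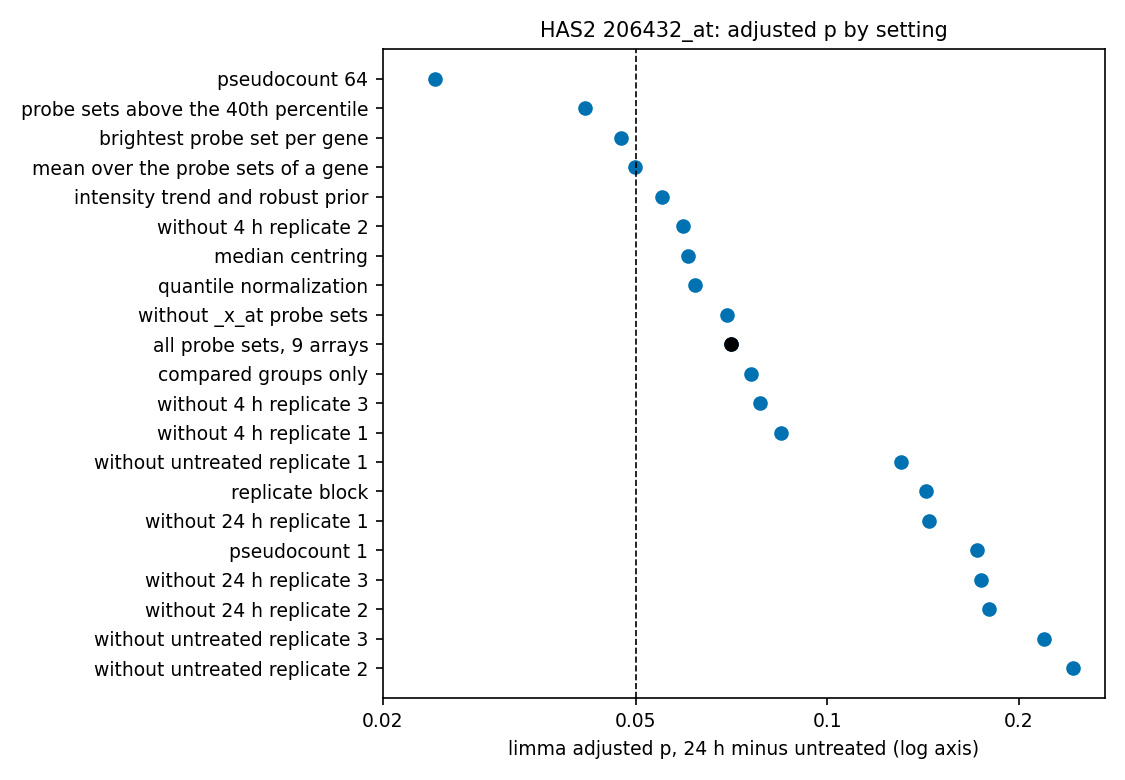
Limma adjusted p (log axis) of HAS2 probe set 206432_at for 24 h minus untreated, under each setting; the black point is the fit over all probe sets and 9 arrays, and the dashed line is 0.05. Of 20 alternatives 4 lie below 0.05, and the highest value is 0.243. The point for the mean over the probe sets of a gene is for both HAS2 probe sets together.

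HAS3, which encodes another membrane synthase, had probe sets that went opposite ways. Probe set 1552980_at read 18.5, 45.1 and 29.5 untreated, 63.8, 55.5 and 43.0 at 4 h and 42.0, 56.6 and 50.6 at 24 h. Treated arrays were mostly brighter, but untreated replicate 2 overlapped them at both times. The log2 differences were 0.60 ± 0.21 SE at 4 h (limma adjusted p = 0.325) and 0.52 ± 0.21 SE at 24 h (limma adjusted p = 0.327).

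HAS3 probe set 223541_at was instead dimmer with treatment. It read 29.3, 47.1 and 40.9 untreated, 25.7, 32.9 and 15.9 at 4 h and 7.9, 22.4 and 13.7 at 24 h. At 24 h no array reached the untreated range, with a log2 difference of -0.86 ± 0.22 SE (limma adjusted p = 0.138), and at 4 h the groups overlapped (-0.44 ± 0.22 SE, limma adjusted p = 0.51). The mean over both probe sets was 0.08 higher at 4 h and 0.17 lower at 24 h on the log2 scale (limma adjusted p = 0.927 and 0.765), and so averages over the split.

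The split also appears within each array. The log2 value of 1552980_at minus that of 223541_at was -0.39, -0.05 and -0.32 untreated, 0.94, 0.55 and 0.89 at 4 h and 1.28, 0.92 and 1.17 at 24 h. The group means were -0.25 ± 0.18, 0.79 ± 0.21 and 1.12 ± 0.18 (SD, n = 3), and treated arrays did not overlap untreated ones at either time. This pair was picked after its values were seen, so no test is given. How often probe set pairs of other genes separate in this way was not worked out. The sources used here do not say which HAS3 transcripts each probe set reports. In both treated groups, replicate 2 had the highest ACTB ratio, 0.871 at 4 h and 0.727 at 24 h. It also had the smallest HAS3 split of its group, 0.55 and 0.92. Among untreated arrays the highest ratio, 0.922, went instead with the highest value, -0.05. The part of RNA quality or preparation in the HAS3 split was not tested.

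**Figure D3:**
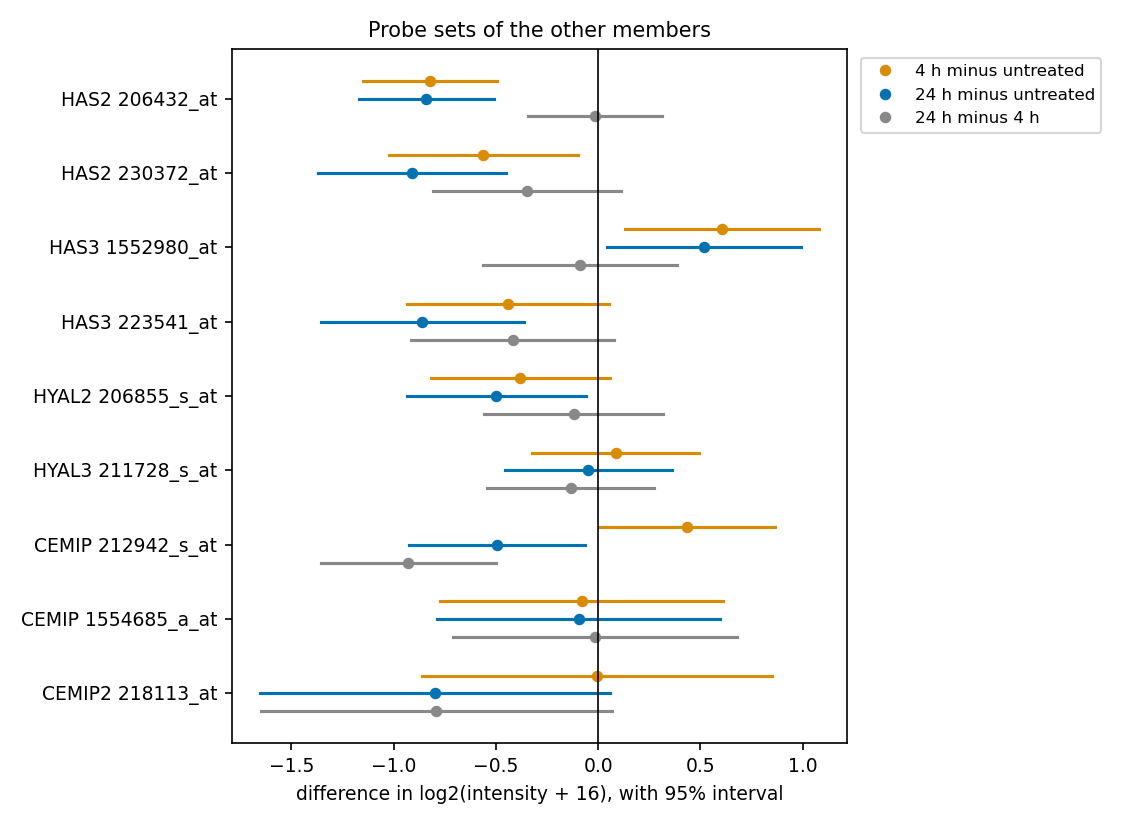
Differences in log2(intensity + 16) with 95% intervals from the limma fit for the 9 probe sets of members other than CD44, in the 3 comparisons. Both HAS2 probe sets lie left of 0 against untreated, the HAS3 probe sets lie on opposite sides, and CEMIP 212942_s_at is right of 0 at 4 h and left of it at 24 h.

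Among the genes of breakdown, CEMIP was highest at 4 h and lowest at 24 h. CEMIP, known also as KIAA1199 or HYBID, encodes a hyaluronan-binding protein needed for depolymerization in skin fibroblasts. Its probe set 212942_s_at read 168, 123 and 120 untreated, 197, 150 and 226 at 4 h and 74.6, 96.0 and 106 at 24 h. The 24 h arrays lay below every 4 h array and below every untreated array, and the 4 h arrays overlapped the untreated ones.

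The largest of the 3 CEMIP differences was between the treated groups, 1.90-fold lower at 24 h than at 4 h (log2 difference -0.93 ± 0.19 SE, 95% interval -1.36 to -0.50, limma adjusted p = 0.181). Against untreated, the log2 differences were 0.43 ± 0.19 SE at 4 h (limma adjusted p = 0.446) and -0.50 ± 0.19 SE at 24 h (limma adjusted p = 0.297). With an intensity trend and a robust prior in limma, 24 h against 4 h passed (adjusted p = 0.0213), and with the mean over both CEMIP probe sets its log2 difference was -0.47 (limma adjusted p = 0.295). With a pseudocount of 1, which gives dim values more weight, CEMIP 212942_s_at differed by -1.04 between 24 h and 4 h, less than CEMIP2 218113_at (-1.60), CD44 234411_x_at (-1.63) and HAS2 230372_at (-1.06), none of them called. The other probe set, 1554685_a_at, read between 4.3 and 29.1 over the 9 arrays with no order of groups. Replicate 2 at 4 h, with the ACTB ratio nearest to untreated, had the lowest of the 4 h values of 212942_s_at. The part of RNA quality in this was not tested.

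CEMIP2 encodes a transmembrane protein related to CEMIP that has been described as a hyaluronidase of the cell surface. Its probe set 218113_at read 46.7, 54.4 and 53.5 untreated, 44.4, 49.6 and 60.4 at 4 h and 43.3, 39.4 and 1.8 at 24 h. The log2 difference at 24 h was -0.80 ± 0.38 SE (limma adjusted p = 0.409), and without replicate 3 of the 24 h group it was -0.23 (limma adjusted p = 0.595), so most of it came from that 1 array. At 4 h the difference was -0.01, with a 95% interval from -0.86 to 0.85.

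HYAL2, the hyaluronidase anchored at the cell surface, was lower at 24 h. Probe set 206855_s_at read 362, 330 and 324 untreated, 205, 366 and 224 at 4 h and 248, 219 and 239 at 24 h. All 24 h arrays lay below the untreated ones, whereas at 4 h replicate 2 was the highest array of all 9, replicate 1 the lowest, and replicate 3 lay among the 24 h arrays. The log2 difference at 24 h was -0.50 ± 0.20 SE (1.41-fold lower, limma adjusted p = 0.303), and at 4 h it was -0.38 ± 0.20 SE (limma adjusted p = 0.524). Without replicate 2 of the 4 h group the 4 h difference was -0.62 (limma adjusted p = 0.115).

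The arrays with low HYAL2 were those with a low ACTB ratio. The 5 arrays with ratios of 0.727 or less had HYAL2 values of 205 to 248, and the 4 arrays with ratios of 0.855 or more had values of 324 to 366, replicate 2 of the 4 h group among them. The GAPDH ratio split the arrays in the same way but in the opposite direction. It was 1.061 to 1.105 in the 5 arrays with low HYAL2 and 1.048 to 1.049 in the other 4. The part of RNA quality in the HYAL2 difference was not tested. HYAL3, a neighbour of HYAL1 and HYAL2 in a gene cluster on chromosome 3, showed no such split: probe set 211728_s_at read 23.6, 22.5 and 20.2 untreated, 31.5, 28.5 and 15.2 at 4 h and 15.0, 22.6 and 25.7 at 24 h, with overlapping groups. Its log2 differences were 0.09 at 4 h (95% interval -0.32 to 0.49) and -0.05 at 24 h (-0.46 to 0.36), with limma adjusted p = 0.922 and 0.95.

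**Figure D4:**
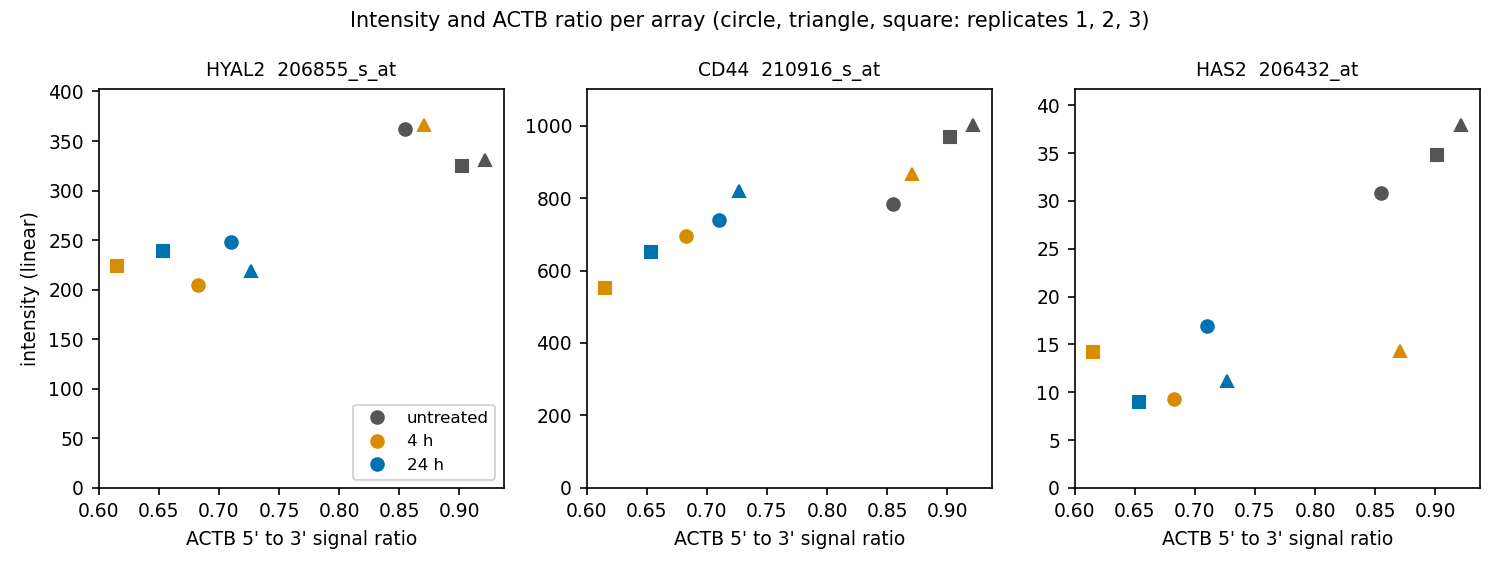
Deposited intensity of HYAL2 206855_s_at, CD44 210916_s_at and HAS2 206432_at against the ACTB 5' to 3' signal ratio, 1 point per array. The 4 h triangle (replicate 2, ratio 0.871) sits with the untreated arrays for HYAL2 at 366 and with the treated arrays for HAS2 at 14.3. The part of RNA quality in these values was not tested.

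CD44, the main hyaluronan receptor of many cell types, differed little by its probe sets of high intensity. Probe set 212063_at read 3543, 3744 and 3615 untreated, 3489, 3481 and 3782 at 4 h and 3854, 4109 and 4262 at 24 h. The 24 h arrays lay above all the others by a small margin: the log2 difference was 0.16 ± 0.11 SE against untreated (95% interval -0.09 to 0.42, limma adjusted p = 0.597) and -0.02 at 4 h (-0.28 to 0.23, limma adjusted p = 0.975). Across the 7 CD44 probe sets with a mean intensity of at least 500, differences ran from -0.39 to -0.00 at 4 h and from -0.31 to 0.31 at 24 h. Of the 10 with a mean of at least 32, 3 lay above 0 at 4 h and 6 at 24 h, with medians of -0.07 and 0.09.

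Among the 7 CD44 probe sets with a mean of at least 500, 204490_s_at and 210916_s_at lay farthest apart at 24 h. Probe set 204490_s_at read 1224, 1553 and 1560 untreated, 1495, 1375 and 1439 at 4 h and 1667, 1791 and 1912 at 24 h, with the 24 h arrays above all others (log2 difference 0.31 ± 0.14 SE against untreated, limma adjusted p = 0.36). Probe set 210916_s_at read 785, 1001 and 970 untreated, 695, 867 and 551 at 4 h and 741, 819 and 652 at 24 h, with overlap at both times (log2 difference -0.31 ± 0.18 SE at 24 h, limma adjusted p = 0.521). Their log2 difference within an array was 0.64 ± 0.03 untreated, 1.03 ± 0.35 at 4 h and 1.27 ± 0.23 at 24 h (SD, n = 3). The pair was picked after its values were seen, and gets no test.

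For that CD44 pair, the 4 h arrays gave 1.09, 0.66 and 1.36 in the order of replicates 1 to 3, with ACTB ratios of 0.682, 0.871 and 0.615. The 24 h arrays gave 1.15, 1.11 and 1.53, with ratios of 0.710, 0.727 and 0.654. Replicate 2 at 4 h thus lay within the untreated range of 0.63 to 0.68, and the 2 arrays with the lowest ratios had values of 1.36 and 1.53. The sources used here do not say where along the CD44 transcript each probe set lies, and the part of RNA quality in this distance was not tested.

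**Figure D5:**
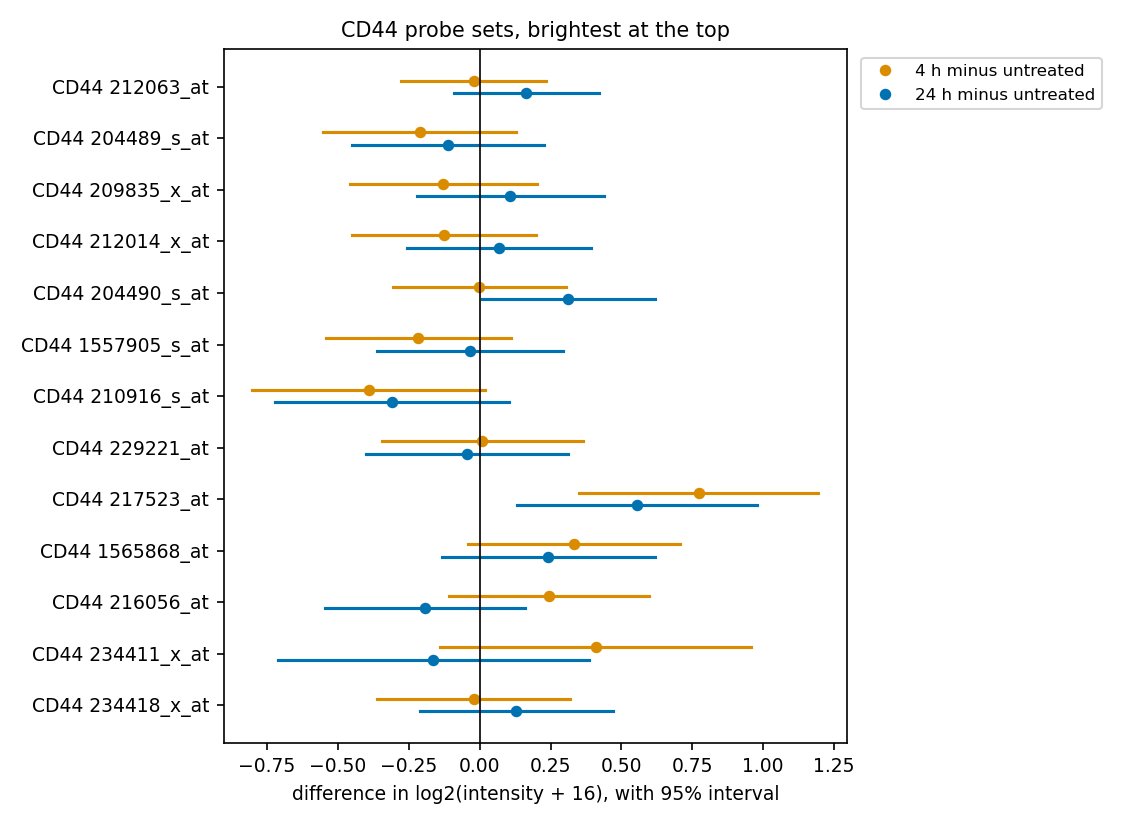
Differences in log2(intensity + 16) with 95% intervals from the limma fit for the 13 CD44 probe sets, brightest at the top. The 7 brightest lie between -0.39 and 0.31, and 217523_at lies at 0.77 at 4 h and 0.56 at 24 h.

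Another CD44 probe set, 217523_at, with a mean intensity of 126, was brighter in every treated array. It read 93.3, 78.6 and 82.4 untreated, 138, 124 and 220 at 4 h and 124, 137 and 135 at 24 h. All 6 treated arrays lay above all 3 untreated ones, which held for 1 of the 22 member probe sets and for 3.76% of all probe sets. It was 1.71-fold higher at 4 h (log2 difference 0.77 ± 0.19 SE, limma adjusted p = 0.171) and 1.47-fold higher at 24 h (0.56 ± 0.19 SE, limma adjusted p = 0.23). With an intensity trend and a robust prior the 4 h difference passed (limma adjusted p = 0.0417). Without replicate 3 of the 4 h group, the brightest array at 220, the 4 h difference was 0.55. That array had the lowest ACTB ratio of the 9 arrays, 0.615. Replicate 2 at 4 h, with a ratio of 0.871, had the lowest 4 h value, 124. Among the 24 h arrays the values did not follow the order of the ratios. The part of RNA quality or preparation in the 217523_at difference was not tested.

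The remaining CD44 probe sets added no separation from untreated. Probe sets 204489_s_at, 209835_x_at, 212014_x_at and 1557905_s_at had group means between 1219 and 1950 and differences from -0.22 to 0.11 against untreated. Probe set 229221_at averaged 254 untreated, 254 at 4 h and 243 at 24 h, and 1565868_at averaged 36.5, 49.3 and 45.3. Probe sets 216056_at, 234411_x_at and 234418_x_at had means over the 9 arrays of 12.2, 8.02 and 2.59, under the pseudocount. Of the 13 CD44 probe sets, 1 was separate from untreated at 4 h and 3 were at 24 h.

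By likeness of pattern over the 9 arrays, among 10717 probe sets of other genes with a mean of at least 100, CD44 212063_at was closest to NIPA2 (Pearson r = 0.963), ATP1B3 (0.955), RC3H2 (0.938), EIF3L (0.938) and PGK1 (0.937). HYAL2 206855_s_at, among 10725, was closest to TLCD3A (0.971), TRAPPC1 (0.967), STUB1 (0.966), METRN (0.965) and NFE2L1 (0.961). These are the highest of many correlations, the arrays share groups and scaling, and they are given as a description.

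The wider pathway was followed through 7 lists of 62 genes, of which 57 had a probe set. None was called in any comparison by the limma fit, and at an unadjusted p under 0.05 there were 11 of 57 at 4 h, 11 of 57 at 24 h and 4 of 57 between 24 h and 4 h. These are 19.3%, 19.3% and 7.02% of the list genes, beside 11.6%, 14.8% and 10.6% of all 19775 genes, each read by its brightest probe set. The lowest adjusted p was 0.256, 0.101 and 0.111. In all, 19 of the 57 genes had a mean below 16.

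For precursor supply, none of 6 measured genes was called, and the median difference at 24 h was -0.07 against 0.01 over all genes. UGDH, which makes UDP-glucuronic acid, measured 228 ± 15 untreated, 159 ± 11 at 4 h and 151 ± 25 at 24 h (SD, n = 3; limma adjusted p = 0.256 and 0.141). GNPNAT1, an enzyme of UDP-N-acetylglucosamine synthesis, measured 504 ± 13, 453 ± 52 and 382 ± 29 (limma adjusted p = 0.727 and 0.222). Of 4 other genes of breakdown none was called. HEXA, a lysosomal hexosaminidase subunit, measured 458 ± 8, 352 ± 62 and 420 ± 96. Of its 4 probe sets, 2 went the other way at 4 h and 1 at 24 h. The sperm hyaluronidase gene SPAM1 was under 16 in all groups.

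Among 17 matrix proteins that bind or cross-link hyaluronan none was called, and 12 had means below 16. PTX3, a pentraxin that takes part in assembling hyaluronan-rich matrix, had the order of groups seen for CEMIP: 790 ± 20 untreated, 1011 ± 19 at 4 h and 599 ± 51 at 24 h. Its limma adjusted p was 0.305 at 4 h, 0.176 at 24 h and 0.111 between 24 h and 4 h. ITIH4, of the inter-alpha-trypsin inhibitor family, was near background with means of 5.43, 12.9 and 12.9, and 1 of its 4 probe sets went the other way at 24 h. Of 7 other receptors none was called. TLR4 measured 87.9 ± 25.3, 111 ± 11 and 120 ± 14, while 2 of its 4 probe sets went the other way at 24 h, and STAB2 was under 16 in all groups.

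Of 8 measured genes for CD44 cleavage none was called. PSEN2, a catalytic subunit of gamma-secretase, had the lowest p of the lists at 24 h, with 185 ± 13 untreated, 217 ± 14 at 4 h and 290 ± 38 at 24 h (limma adjusted p = 0.101 at 24 h), while 1 of its 3 probe sets went the other way. APH1B, another subunit, measured 125 ± 18, 154 ± 29 and 173 ± 36 (limma adjusted p = 0.368 at 24 h), while 1 of its 2 probe sets went the other way. Of 7 linkers to actin none was called: ANK2 measured 69.5 ± 2.8, 70.2 ± 6.3 and 97.9 ± 14 and ANK3 8.03 ± 4.20, 15.4 ± 7.7 and 21.1 ± 7.3 (limma adjusted p = 0.213 and 0.263 at 24 h). At 24 h, 1 of 4 ANK2 probe sets and 2 of 5 ANK3 probe sets went the other way. The counts at 4 h were 0 of 4 for ANK2 and 3 of 5 for ANK3. Of 8 measured splicing regulators of CD44 variant exons none was called. HNRNPM measured 1829 ± 133, 1481 ± 57 and 1380 ± 83 (limma adjusted p = 0.18 at 24 h). Of its 7 probe sets, 2 went the other way at 4 h and 3 at 24 h. HNRNPA1 measured 628 ± 18, 831 ± 119 and 824 ± 167 (limma adjusted p = 0.391 at 24 h). Of its 3 probe sets, 1 went the other way at 4 h and 0 at 24 h.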

How the data were processed

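Each of the 9 arrays carried 54675 probe sets. The authors deposited linear intensities. R 2.9.2 and RMA appear in the submitters' processing notes, with no step assigned to them, but the values were not on a log scale and had a mean of 100 on every array after 2% was trimmed at each end. The sources used here give no summarisation method or detection call, and the number of arrays limits the precision.

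After 62 control probe sets were left out, log2(intensity + 16) was fitted with 1 mean per group over all 9 arrays in limma 3.58.1 (lmFit and eBayes, R 4.3.3), two-sided, with Benjamini-Hochberg adjustment over 54613 probe sets and a threshold of 0.05. Intervals are 95%. Array-level measures were compared by exact permutation. Probe sets were named through the platform annotation, updated to RefSeq symbols: 41091 named 1 gene, 1801 several and 11721 were not listed.

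All members were named, and in each list the 2 genes with the smallest p at 24 h, by the brightest probe set of the gene. Likeness used probe sets with a mean of at least 100. Members and lists were chosen with earlier results of these data known. In a simulated 24 h comparison over 54613 probe sets, 0%, 29.1% and 79.7% of probe sets changed by 0.5, 1 and 2 on the log2 scale were recovered, with 2 false calls. Alternatives were the pseudocount, scaling, filter, handling of probe sets, prior, groups fitted, block and each array left out.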

Additional observations from a re-analysis of the deposited data

How the results depend on the processing

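None of the 22 member probe sets was called in the limma fit over all probe sets, and this held in 24 h against 4 h under every alternative except the intensity trend with a robust prior (1, CEMIP 212942_s_at). The trend called 249 of all 54613 probe sets in that comparison. At 4 h the member count became 1 with a pseudocount of 64 (HAS2 206432_at), where 338 of 54613 probe sets were called. With the trend it was also 1 (CD44 217523_at), where 530 of 54613 were called. At 24 h the member count became 1, HAS2 206432_at, with a pseudocount of 64, above the 40th percentile and with the brightest probe set per gene. All calls in these settings, in that order, were 1204 of 54613 probe sets, 349 of those the filter kept and 93 of 19775 genes. With the mean over probe sets the member count was also 1, the mean of both HAS2 probe sets, beside 49 of 19775 genes. It was 0 in all 9 runs without 1 array. Of 1214 values of members under alternatives, 1159 kept direction and side of the threshold, 7 gained a call, 48 turned sign without a call at either setting and 0 reversed a call. The 1159 include counts of probe sets above 0 for CD44 and for CEMIP, which changed little or not at all. Means over a gene's probe sets were set against its brightest probe set. HAS3 at 24 h, 0.52 for 1552980_at and -0.17 for the mean, is thus among the 48. Direction could not change where an alternative altered only the spread, the adjustment or arrays outside the comparison.

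Calls among all probe sets, 7 at 4 h, 29 at 24 h and 14 for 24 h against 4 h, were 0, 0 and 2 with a pseudocount of 1, and 338, 1204 and 196 with 64. They were 85, 349 and 27 above the 40th percentile, 50, 93 and 28 with the brightest probe set per gene, and 26, 49 and 28 with the mean over probe sets. They were 0, 0 and 2 with the compared groups only, and 530, 1470 and 249 with the trend. Median centring gave 4 at 4 h. Without 1 array they ranged from 0 to 5, 0 to 251 and 2 to 4; the 251 came without replicate 2 of the 4 h group. The causes of these shifts were not tested. Same-numbered arrays correlated by -0.04 to 0.06 in their deviations from group means, and 5 of 9 arrays correlated best with their own number, so the numbers were not taken as pairs. With the replicate block the calls were 1, 0 and 3, and no member was called. Values near or under 16 cannot be told from background.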

Other observations

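Probe set 228179_at, which the annotation gives to both UTP4 and HAS3, was left out of the members. It read between 2.4 and 16.6 over the 9 arrays and so adds nothing on the split between the HAS3 probe sets.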
